A study of Mus musculus with 24 samples.

Results

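Mouse embryonic fibroblasts (MEFs) lacking Mlx were compared in their immortalized and their primary form. The comparison took the 3 libraries of immortalized MlxKO cells and the 3 libraries of primary MlxKO cells, which are 6 of the 24 libraries in the 8 groups of the study, and joined them by gene identifier. Of the 41710 genes in the tables, 12895 had a level of at least 1 CPM (reads of a gene scaled to a common library size) in at least 3 of the 6 libraries and were tested. The study immortalized its cells in order to examine each knockout without the senescence that fibroblasts undergo in culture, so the comparison addresses how cells with the same deletion differ between these states.

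All cells were grown from embryos of mid to late gestation that had been pooled. MlxKO cells carried floxed Mlx alleles and a transgene for CreER, in which a recombinase is joined to an estrogen receptor. The transgene is expressed widely, from the ROSA26 promoter. The alleles of primary cells were excised with 500 nM 4-hydroxytamoxifen (4OHT). For immortalization, cells were transduced for 72 h, at a multiplicity of infection of 1, with a lentivirus carrying SV40 T-antigen and blasticidin resistance. Selection began a week later and comprised 5 days of blasticidin at 1 μg/ml and 10 days at 2 μg/ml. Only after it was 4OHT given, for 10 days. The WT MEFs used as a reference kept intact loci, and immortalized WT cells received the same virus and selection but no 4OHT. Immortalization, the selection, the time in culture and the export of primary and immortalized libraries as separate tables all coincide with the groups and cannot be told apart. Only the MlxKO groups received 4OHT. The study does not say that WT and MlxKO libraries came from the same embryo pool or the same transduction. In comparisons between genotypes the loss of Mlx therefore cannot be told apart from these. The labels describe triplicate sets of RNA and do not say that these came from separate cultures. The study calls the RNA-seq samples of primary cells biological replicates, without saying which step was repeated. If the cultures were not separate, the p-values measure the spread between these samples only.

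Immortalized MlxKO libraries held between 17944748 and 18938091 reads on genes, primary MlxKO libraries between 15986856 and 18502811, immortalized WT libraries between 17541112 and 17887100, and primary WT libraries between 16692411 and 17887312. Over the 3 libraries of a group, 3 reads corresponded to 0.0505 CPM in immortalized and 0.0617 CPM in primary MlxKO cells, and this floor reflects the error of counting alone. Pearson's r of log2(CPM + 1), taken over genes that do not count as replicates, was between 0.990 and 0.996 among the immortalized MlxKO libraries and between 0.994 and 0.995 among the primary ones. Library 1 of the immortalized MlxKO group differed from the other libraries of its group by a chi-square per degree of freedom of 25.5 and 16.9, against 4.98 between libraries 2 and 3. Library 3 of the immortalized WT group stood apart, with r of 0.953 and 0.946 to the others of its group, against 0.993 between those. Xist, the RNA that silences an X chromosome in female cells, was at 2062, 1546 and 534 CPM in the immortalized WT libraries, and the Y-linked helicase gene Ddx3y at 6.40, 4.52 and 103 CPM. Comparisons that use this WT group are therefore given with and without its library 3. Scaled over 12 libraries, the sex-linked genes, Xist among them, summed to 264, 305 and 329 CPM in primary and 2073, 1554 and 708 CPM in immortalized WT libraries. Leaving out library 3 thus keeps the libraries furthest from primary WT in this sum.

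Mlx is the obligate partner of the glucose-sensing factors Mlxip (MondoA) and Mlxipl (ChREBP), and the pairs bind carbohydrate response elements in genes such as Txnip and Arrdc4. It also pairs with some Mxd proteins and with Mnt, which in turn share the partner Max with Myc. SV40 large T-antigen binds and inactivates p53 and the proteins of the Rb family, which otherwise hold back E2F factors and entry into S phase.

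The gene knocked out was examined first, with the 12 MlxKO and WT libraries scaled together. Mlx (ENSMUSG00000017801), which lies on chromosome 11 from 100978080 to 100983043 of GRCm39, had 16.5, 12.0 and 11.9 CPM in immortalized and 14.1, 14.8 and 15.3 CPM in primary MlxKO libraries, against 24.5, 23.1 and 19.9 CPM in immortalized and 28.5, 22.5 and 27.1 CPM in primary WT libraries. All MlxKO libraries were below all WT libraries. The loxP sites flank internal exons, so the rest of the transcript can still be counted, and 51.9% of the exonic bases of Mlx overlap Psmc3ip on the opposite strand. Txnip, an inhibitor of glucose uptake and the best known target of the Mondo proteins, had 4.27, 2.47 and 4.44 CPM in immortalized MlxKO and 59.2, 73.0 and 32.9 CPM in immortalized WT libraries, and 7.47, 7.02 and 5.50 CPM in primary MlxKO and 134, 127 and 143 CPM in primary WT libraries. Both MlxKO groups were below both WT groups, without overlap.

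Immortalized MlxKO cells expressed replication, mitosis, interferon and MHC class I genes at higher levels than primary MlxKO cells, and collagens, other matrix proteins, smooth muscle proteins and secreted factors at lower levels. At a limma adjusted p under 0.05, 3690 genes (28.6% of those tested) were higher in immortalized cells and 3855 (29.9%) were lower. With a log2 fold change of at least 1 as well, 831 genes (6.44%) were higher and 1133 (8.79%) lower. The excess of lower genes in this count depends on the libraries, the filter and the scaling. Without library 1, 2 or 3 of the primary group 723, 715 and 727 genes were lower and 847, 857 and 830 higher, with fewer genes passing the filter. A filter at a mean of 5 CPM gave 627 lower and 610 higher. The deposited scaling gave 996 lower and 1079 higher, and library totals 969 and 1221. The libraries of the groups did not overlap for 3998 genes (31%) that were higher in immortalized cells and 4177 (32.4%) that were lower. An exact permutation of 3 and 3 libraries has 0.10 as its lowest p for any 1 gene. The joint TMM scaling placed the median log2 fold change of all genes at -0.01, and 48.9% of the genes called were higher. With the scaling as deposited, the median was 0.14, and 5082 genes were higher and 2808 lower, which is 64.4% higher. Scaling by library totals gave a median of 0.19, with 5630 genes higher and 2499 lower, or 69.3% higher. The medians of the lists below are for this reason also given relative to the median of all genes, and a list's share of members called is to be read against 28.6% and 29.9%. All fold changes are on the log2(CPM + 1) scale, as immortalized minus primary, which understates the change of genes of low level. A single value in parentheses after a gene is this log2 fold change.

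**Figure D1:**
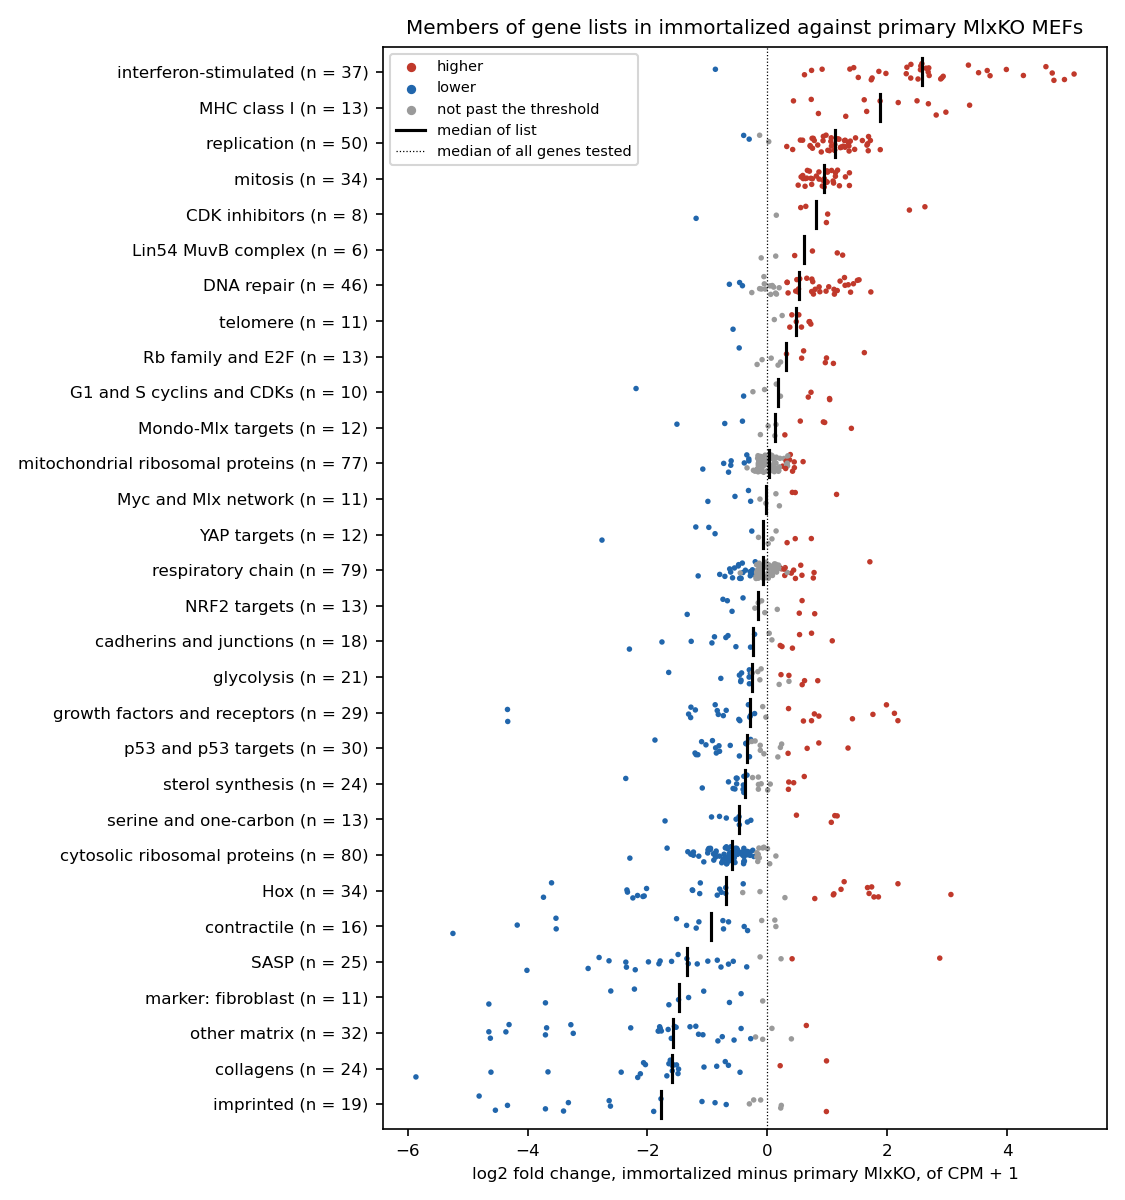
Log2 fold change of log2(CPM + 1), immortalized minus primary MlxKO (x axis), for the tested members of the gene lists shown (rows, ordered by median). Sex-linked genes, the list with Plac8 and Hmga1 and the marker lists other than that of fibroblasts are left out. Red points are higher, blue points lower and grey points not past the limma threshold, bars are list medians, and the dotted line is the median of all genes tested. Of the lists shown, the interferon-stimulated list has the highest median at 2.58, and the imprinted list the lowest at -1.77.

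Genes under p53 control were mostly lower in immortalized cells. Of 30 members of the p53 list, 17 fell and 4 rose, with a median log2 fold change of -0.34 (-0.33 relative to all genes). With the deposited scaling, 13 were lower and 7 higher. Cdkn1a, which encodes the CDK inhibitor p21, had 155, 176 and 165 CPM in immortalized and 377, 363 and 394 CPM in primary libraries. These groups did not overlap, and the log2 fold change was -1.19 (standard error 0.0765, limma adjusted p = 1.56e-08). Ccng1, a p53 target encoding cyclin G1, had 294, 240.1 and 244 CPM against 554, 598 and 583 CPM (log2 fold change -1.16, adjusted p = 7.94e-08). Mdm2, the ubiquitin ligase that removes p53 and is itself a target, fell by less, from 193 ± 11.2 to 139 ± 9.15 CPM (SD, n = 3; log2 fold change -0.47, adjusted p = 0.000205). The largest falls on the list were those of Ddit4l (-1.88), an inhibitor of mTOR signalling, and Sesn2 (-1.21), a stress sensor, after which came Cdkn1a. Against the direction of the list, the receptor tyrosine kinase gene Epha2 rose by 1.34, Ckap2, which encodes a spindle protein, by 0.86, and Pidd1 by 0.66. Trp53 itself, the gene for p53, had 171, 196 and 194 CPM in immortalized and 169, 155 and 172 CPM in primary libraries and did not pass the threshold (log2 fold change 0.17, adjusted p = 0.0805). It passed with the deposited scaling (0.33), with library totals (0.39) and without library 1 of the immortalized group (0.24).

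CDK inhibitors other than p21 went the other way. Of the 8 tested, 6 rose and 1, Cdkn1a, fell. Cdkn2a, whose locus encodes both the CDK4/6 inhibitor p16 and the p53 activator p19Arf, had 334, 418 and 403 CPM in immortalized and 59.9, 59.5 and 64.2 CPM in primary libraries. This was a rise of 6.28 times in the mean (log2 fold change 2.63, standard error 0.0906, adjusted p = 2.98e-11), and reads counted per gene do not separate the products. Cdkn2c, the gene for p18, had 124, 134 and 139 CPM against 21.6, 26.2 and 27.0 CPM (log2 fold change 2.37), and Cdkn2d, the gene for p19Ink4d, rose by 1.00. Cdkn2b, which encodes p15, had 47.1, 69.9 and 65.9 CPM against 49.6, 54.2 and 58.9 CPM, and the groups overlapped (log2 fold change 0.15, adjusted p = 0.345). The rise of Cdkn2a in WT cells, taken from the same 12-library fit, was 2.25 (2.30 without library 3 of the immortalized WT group), and the difference between the genotypes did not pass the threshold (0.36, adjusted p = 0.0653, and 0.0598 without that library).

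In the Rb and E2F list, 7 of 13 members rose and 1 fell. The rises were led by the repressor E2f7, from 18.8 ± 1.42 to 59.7 ± 2.68 CPM (SD, n = 3), with a log2 fold change of 1.62, and included the Rb relative Rbl1 (1.10), E2f8 (0.98) and the activator E2f1 (0.97). E2f6, another repressor, was the member that fell (-0.47). Rb1 itself had 38.6, 27.9 and 31.03 CPM in immortalized against 25.5, 29.1 and 28.0 CPM in primary libraries and did not pass (log2 fold change 0.22, adjusted p = 0.134). It passed with the deposited scaling (0.37), with library totals (0.43) and without library 2 of the immortalized group (0.32). Of the MuvB complex, which turns cell cycle genes on or off depending on its partners, 4 of 6 tested members or partners rose, among them Mybl2 (1.25) and Foxm1 (1.16), the activators of mitotic genes. Among the 10 cyclins, CDKs and phosphatases of G1 and S phase, 4 rose, namely Cdk2, Ccna2, Cdc25a and Ccne2, and 2 fell. Ccnd2, the gene for cyclin D2, fell from 866, 801 and 693 CPM in primary to 183, 171 and 159 CPM in immortalized libraries (log2 fold change -2.19, adjusted p = 1.88e-10).

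DNA replication genes rose nearly as a block. Of 50 members, 46 rose, 2 fell and the median log2 fold change was 1.12 (1.13 relative to all genes). Lig1, the ligase that joins Okazaki fragments, had 141, 153 and 150.1 CPM in immortalized and 40.4, 38.2 and 39.6 CPM in primary libraries (log2 fold change 1.88, standard error 0.0784, adjusted p = 1.87e-10). Dnmt1, the methyltransferase that copies DNA methylation behind the replication fork, had 407, 419 and 423 CPM against 133, 126 and 120.0 CPM (1.72). Mcm5, a subunit of the replicative helicase, had 177, 190.1 and 188 CPM against 57.8, 52.8 and 60.0 CPM (1.69). In each of these genes every immortalized library was above every primary one by more than the spread within groups. The members of the origin recognition complex differed among themselves. Orc1 rose by 0.93 and Orc6 by 0.90, while Orc3 and Orc4 had log2 fold changes of -0.30 and -0.40 and Orc2 and Orc5 did not pass (-0.13 and 0.02). The falls of Orc3 and Orc4 no longer passed with the deposited scaling (-0.15 and -0.24) or with library totals (-0.10 and -0.19), so none of the list was lower with the deposited scaling. Ribonucleotide reductase, which makes deoxynucleotides, rose by less than most of the list, with 0.32 for Rrm1 and 0.55 for Rrm2.

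All 34 members of the mitosis list rose, with a median of 0.94 (0.94 relative to all genes) and a range from 0.51 to 1.37. Espl1, the gene for separase, which cleaves cohesin at anaphase, had 91.4, 96.9 and 98.4 CPM in immortalized and 36.0, 35.8 and 37.4 CPM in primary libraries (log2 fold change 1.37, adjusted p = 6.34e-09). Cdc25b, a phosphatase that activates CDK1, rose by 1.37, and Pttg1, the gene for securin, by 1.30. Ccnb1, the gene for cyclin B1, had 184, 166 and 176 CPM against 86.7, 92.0 and 84.8 CPM (0.99), with the limit that 23.7% of its 31-base stretches recur in its pseudogene copy. Part of these rises was larger in MlxKO than in WT cells. That difference was tested as immortalized minus primary in MlxKO less the same in WT. Here and below, higher or lower in this test refers to the change and not to the level. Of 13247 genes, 2016 (15.2%) were higher in MlxKO and 2147 (16.2%) lower. This split depends on the scaling: with library totals 2809 genes were higher and 1545 lower, or 64.5% of those called higher against 48.4%, and with the deposited scaling 2004 and 2164. Without library 3 of the immortalized WT group the counts were 3155 higher and 3207 lower. The number higher in MlxKO fell to 1239 or 1245 without library 2 or 3 of the immortalized MlxKO group, and to 1316 or 1300 without library 1 or 2 of the primary WT group. On the replication list 19 members were higher and 3 lower in this test (25 and 4 without library 3 of the immortalized WT group), and on the mitosis list 11 were higher and 0 lower (20 and 0). For Mcm5 the log2 change was 0.83 in WT (0.78 without that library) and the difference 0.84 (adjusted p = 0.00275; 0.89 without that library). For Ccnb1 it was 0.92 in WT (0.70 without that library) and the difference did not pass (0.06, adjusted p = 0.852). Without that library the difference was 0.28 and did not pass either (adjusted p = 0.0509). Scaled over 12 libraries, the replication list summed to 2191, 2238 and 2332 CPM in primary MlxKO and 2733, 2697 and 2608 CPM in primary WT libraries. The immortalized sums were 4876, 4742 and 4817 CPM in MlxKO and 4585, 4663 and 5132 CPM in WT. For mitosis, primary sums were 1947, 2051 and 1975.5 CPM (WT 2560, 2536 and 2491), and immortalized ones 3822, 3595 and 3632 CPM (WT 3631, 3402 and 5075). Primary sums were lower in MlxKO, and immortalized sums overlapped between genotypes.

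Promoters of these lists were searched because their members moved together. A RefSeq promoter sequence (GRCm38.p6, 250 bases before to 50 bases after the start) was found for 10113 of the 12895 genes tested. The E2F motif was taken as TTTCGCGC or TTTGGCGC and the CHR element, bound by MuvB, as TTTGAA, each on both strands. The E2F letters were in 12 of 41 replication promoters (29.3%), in 1 of 29 mitosis promoters (3.45%) and in 178 of all 10113 (1.76%). The CHR letters were in 20 of 29 mitosis promoters (69.0%), in 8 of 41 replication promoters (19.5%) and in 1444 of all (14.3%). An E-box, CACGTG, as bound by Myc and Mlx pairs, was in 17.1% of the replication, 6.90% of the mitosis and 11.7% of all promoters. A match is a description of these letters in this window and not evidence of binding. The promoters of the 3 replication genes with the largest rises and of Espl1 are shown, with the E2F letters in capitals in the replication genes and the CHR letters in capitals in Espl1, at chr7:13278576-13278875 (plus strand), chr9:20952574-20952873 (minus strand), chr8:75109259-75109558 (plus strand, where the motif occurs on both strands and overlaps itself) and chr15:102296043-102296342 (plus strand).
Lig1: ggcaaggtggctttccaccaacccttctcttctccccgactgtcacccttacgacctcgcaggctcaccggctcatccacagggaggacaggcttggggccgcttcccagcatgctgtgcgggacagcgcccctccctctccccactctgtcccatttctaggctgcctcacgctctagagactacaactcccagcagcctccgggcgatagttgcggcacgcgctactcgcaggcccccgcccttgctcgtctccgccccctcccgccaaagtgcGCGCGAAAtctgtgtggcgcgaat
Dnmt1: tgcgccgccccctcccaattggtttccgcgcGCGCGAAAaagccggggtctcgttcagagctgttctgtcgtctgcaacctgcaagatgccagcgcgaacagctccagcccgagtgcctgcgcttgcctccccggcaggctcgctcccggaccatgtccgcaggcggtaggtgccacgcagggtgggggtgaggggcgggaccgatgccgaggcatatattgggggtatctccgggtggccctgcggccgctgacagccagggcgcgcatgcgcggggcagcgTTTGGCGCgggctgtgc
Mcm5: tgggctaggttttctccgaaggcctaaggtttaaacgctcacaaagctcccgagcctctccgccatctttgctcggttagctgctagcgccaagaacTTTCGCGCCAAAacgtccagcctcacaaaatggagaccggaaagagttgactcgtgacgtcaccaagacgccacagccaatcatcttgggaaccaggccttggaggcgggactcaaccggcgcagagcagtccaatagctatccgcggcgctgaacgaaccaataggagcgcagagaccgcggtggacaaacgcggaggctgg
Espl1: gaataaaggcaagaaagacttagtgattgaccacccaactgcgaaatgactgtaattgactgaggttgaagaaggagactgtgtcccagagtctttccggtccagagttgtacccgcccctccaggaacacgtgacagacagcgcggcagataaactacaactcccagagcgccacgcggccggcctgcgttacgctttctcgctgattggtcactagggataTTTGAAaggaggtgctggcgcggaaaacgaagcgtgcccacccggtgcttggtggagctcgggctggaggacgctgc

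DNA repair genes rose in the main, with 30 of 46 higher and 3 lower, and a median of 0.53. Those that rose include the homologous recombination genes Brca1 (1.02) and Brca2 (1.35), the checkpoint kinase gene Chek1 (1.39) and the Fanconi anemia genes Fanca (1.501), Fancd2 (1.12) and Fanci (1.16). Ung, whose product removes uracil from DNA, had 21.1, 22.0 and 24.1 CPM against 6.46, 8.77 and 6.31 CPM (1.53), and Rad54b, which shares exons with Fsbp, rose by 1.72. The falls were in Mgmt (-0.63), which reverses alkylation, Lig4 (-0.42), the end-joining ligase, and Ercc4 (-0.46), a nuclease subunit of excision repair. The kinase genes Atr (0.05) and Prkdc (0.20) did not pass the threshold. Of 11 telomere genes 8 rose, including the helicase gene Rtel1 (0.72) and the shelterin genes Tinf2 (0.70) and Acd (0.69). Tert, the catalytic subunit of telomerase, was the member that fell, with 3.19, 3.86 and 3.72 CPM in immortalized and 6.64, 5.26 and 5.62 CPM in primary libraries (log2 fold change -0.57, adjusted p = 0.00365). In WT cells Tert changed by -1.50 (-1.61 without library 3 of the immortalized WT group), and the genotypes differed (0.92, adjusted p = 0.00876), also without that library (1.04).

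Secreted factors of the senescence-associated secretory phenotype (SASP), the mixture of cytokines, proteases and IGF-binding proteins that senescent fibroblasts release, were lower in immortalized cells. Of 25 tested of 29 on the list, 21 fell and 2 rose, with a median of -1.34 (-1.33 relative to all genes). Mmp13, a collagenase, had 1.82, 1.22 and 0.983 CPM in immortalized and 36.9, 33.6 and 38.4 CPM in primary libraries (log2 fold change -4.01, adjusted p = 5.46e-11). The stromelysin gene Mmp3 fell from 124 ± 20.3 to 17.2 ± 5.15 CPM (SD, n = 3), and all 5 IGF-binding protein genes tested fell, with log2 fold changes between -1.98 for Igfbp5 and -2.99 for Igfbp6. The cytokine gene Il6 had a log2 fold change of -0.99, and the chemokine genes Ccl2 and Cxcl1 of -0.35 and -0.84. The clear exception was Ccl5, a T-cell chemokine that interferon signalling also induces, with 41.3, 25.3 and 26.6 CPM against 3.38, 2.83 and 3.65 CPM (2.87). The other rise was that of Cxcl5 (0.41), and with median-ratio scaling only 1 member of the list was higher.

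Growth factors and their receptors were divided, with 10 of 29 tested (31 on the list) higher and 17 lower (10 and 13 with the deposited scaling). Igf2, the fetal insulin-like growth factor, had 35.0, 31.5 and 28.0 CPM in immortalized and 686, 656 and 614 CPM in primary libraries, and Igf1 had 2.45, 1.93 and 2.43 CPM against 66.2, 67.6 and 60.3 CPM. Both had a log2 fold change of -4.33, and of the exonic bases of Igf2 58.4% overlap a readthrough gene on the same strand. Among receptors, Pdgfrb changed by -1.31 on the log2 scale and Met rose by 1.76. Bmp2 rose from 0.905, 0.809 and 0.811 CPM in primary to 10.3, 5.58 and 6.78 CPM in immortalized libraries, and the EGF receptor ligand gene Ereg from 22.1 ± 3.72 to 99.1 ± 12.1 CPM (SD, n = 3), with log2 fold changes of 2.18 and 2.12. Gdf6, another BMP family member, rose by 1.98.

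The extracellular matrix program of fibroblasts was lower across most of its members. Of 24 collagen genes, 22 fell and 2 rose, with a median of -1.58. Of 32 other matrix genes, 27 fell and 1 rose, with a median of -1.58. Relative to all genes these medians were -1.58 and -1.57. Col1a1, which encodes the main chain of type I collagen and was the most abundant fibroblast marker, averaged 7314 ± 1256 CPM in immortalized and 20234 ± 1149.8 CPM in primary libraries (SD, n = 3), a log2 fold change of -1.48. Col2a1, the cartilage collagen, had 0.294, 0.406 and 0.310 CPM against 80.1, 80.0 and 70.2 CPM (-5.86), and Col14a1, a collagen on the surface of fibrils, 0.147, 0.152 and 0.155 CPM against 28.3, 27.8 and 25.3 CPM (-4.61). The rises were in a pair of basement membrane chains, Col4a6 (0.99) and Col4a5 (0.21, which no longer passed when any 1 of 5 of the 6 libraries was left out).

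Of the other matrix genes, lumican (Lum) had 6.87, 4.26 and 6.26 CPM in immortalized and 142, 173 and 188 CPM in primary libraries (-4.64), decorin (Dcn) 16.9, 10.9 and 12.9 CPM against 179, 183 and 196 CPM (-3.70), and the fibril-associated Mfap4 3.88, 3.55 and 4.50 CPM against 131, 106 and 128 CPM (-4.62). Elastin (Eln) changed by -3.24 on the log2 scale, periostin (Postn) by -3.28 and tenascin C (Tnc) by -2.28. Fibronectin (Fn1) had a smaller change of -1.08, and fibulin 1 (Fbln1) did not pass (-0.08). Mfap2, a microfibril protein, was the list's member that rose, by 0.65. In the test between genotypes, 3 members of this list were higher and 7 lower in MlxKO, and of the collagens 3 and 6. Without library 3 of the immortalized WT group these were 9 and 14, and 5 and 12.

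Of 16 contractile genes, 13 fell and none rose by the limma test, whereas 2 rose with the deposited scaling. Desmin (Des), an intermediate filament protein of muscle, had 0.0981, 0.0508 and 0.207 CPM in immortalized and 48.7, 39.9 and 36.3 CPM in primary libraries (log2 fold change -5.24), and the smooth muscle myosin gene Myh11 0.540, 0.660 and 0.310 CPM against 24.5, 28.2 and 25.3 CPM (-4.17). Mylk, the gene for myosin light chain kinase, changed by -3.53 on the log2 scale, and Acta2, the actin of smooth muscle and myofibroblasts, by -1.19. The genes Cnn1 and Tpm1 did not pass the threshold (0.14 and -0.10). Targets of YAP, a factor that responds to cell tension and density, were divided, with 3 of 12 higher and 5 lower, and the list's median of -0.07 changed sign with the deposited scaling (0.09). Ankrd1 fell from 26.9, 31.6 and 27.8 to 2.55, 4.16 and 3.62 CPM, and Ccn2, the gene for connective tissue growth factor, from 1745 ± 188 to 763 ± 91.5 CPM (SD, n = 3), while Ccn1 did not pass (0.08) and Ptpn14 rose by 0.73. Of 18 tested adhesion genes, 6 rose and 10 fell (8 and 8 with the deposited scaling). The mesenchymal cadherin gene Cdh11 had 225, 188 and 189.6 CPM against 996, 976 and 1001 CPM (-2.30), and Ncam1 changed by -1.27 on the log2 scale. Gja1, the gene for the gap junction protein connexin 43, rose by 1.08.

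Markers of cell types were counted to check the labelled cells. The 11 fibroblast markers summed to 13349.8, 16608 and 15851 CPM in immortalized and 39018, 39091 and 37219 CPM in primary libraries, and 10 of them fell. Vim, the gene for vimentin, changed by -0.44, Thy1 by -2.22, and Pdgfra, the remaining marker, did not pass (-0.08). All these markers stayed above 0 in both groups. Macrophage markers were present in primary and nearly absent from immortalized cells, where the list summed to 10.6, 12.6 and 10.4 CPM against 451, 559 and 502 CPM. Of the 15 tested markers 9 were at 0 in the immortalized libraries, among them the defining receptor gene Adgre1, the leukocyte gene Ptprc and the complement genes C1qa, C1qb and C1qc. Lyz2, the lysozyme of macrophages and the most abundant of them, had 0, 0 and 0 CPM in immortalized and 188, 244 and 235 CPM in primary libraries, which makes it at least 4399.8-fold lower against the floor of 3 reads over the group. C1qb was at least 595-fold lower. Markers at 0 in immortalized cells passed the filter only through the primary libraries, so how many of the tested markers were lower was largely set by the filter, and their levels are given as a description. Cd14 and Cd68, which fibroblasts also express, were at 6.21 ± 0.506 and 4.16 ± 0.508 CPM in immortalized cells (SD, n = 3). Fewer cells of a type and less RNA per cell cannot be told apart in these libraries.

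Of 8 tested neural and glial markers 3 rose and 5 fell, with sums of 177, 223 and 214 CPM in immortalized and 139.7, 140.0 and 128 CPM in primary libraries. Sox10, which defines the glia and crest lineage, was at 0 in immortalized and at 7.91, 7.62 and 7.59 CPM in primary libraries (at least 153-fold lower), while Nes, which dividing mesenchymal cells also express and the most abundant of the list, rose from 41.7 ± 1.80 to 122 ± 23.7 CPM (SD, n = 3). Mesothelial markers summed to 37.6, 65.1 and 60.8 CPM against 43.6, 42.9 and 41.4 CPM. Of the 5 markers, Wt1 and Lrrn4 were at 0 in immortalized cells (at least 61.9-fold and 112-fold lower), while Msln (0.56) and Krt19 (2.03) rose. Cartilage and bone markers summed to 1203, 1006 and 1145 CPM against 2805, 3075 and 3379 CPM, mostly from osteopontin (Spp1, 1034 ± 102 against 2891 ± 296 CPM), and 5 of 6 tested fell, among them Acan (-2.43) and Sox9 (-0.68).

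Markers of the remaining types were low in both groups. Epithelial markers summed to 2.21, 2.54 and 2.48 CPM in immortalized and 3.68, 3.64 and 5.45 CPM in primary libraries, with Krt18 the most abundant and the member tested (-0.45, a fall that no longer passed with the deposited scaling). Endothelial markers summed to 12.0, 11.4 and 13.71 CPM against 6.04, 7.08 and 6.95 CPM, Kdr (0.65) and Egfl7 (1.16) rose, and Cldn5 and Tie1 were at 0 in all 6 libraries. Adipocyte markers summed to 24.5, 25.7 and 26.6 CPM against 26.9, 25.1 and 25.5 CPM, with Adipoq, Cidec and Lep at 0, and of those tested Fabp4 rose (0.88) and Cebpa fell (-0.76). Skeletal muscle markers summed to 10.2, 11.01 and 9.62 CPM against 31.6, 33.9 and 38.1 CPM, nearly all from Acta1 (-1.69), with Ckm, Myf5, Myh3 and Mymk at 0. Erythroid markers were at 0 in the immortalized libraries and at 0.181, 0.0674 and 0.0579 CPM in the primary ones, and none was tested. The part of these cell types in the falls of secreted, matrix and contractile genes was not tested.

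Interferon-stimulated genes showed the largest rises of any list. Of 37 members, 36 rose and 1 fell, with a median log2 fold change of 2.58 (2.58 relative to all genes). Rsad2, which encodes the antiviral enzyme viperin, had 182, 138 and 138 CPM in immortalized and 3.68, 3.44 and 3.07 CPM in primary libraries (log2 fold change 5.11, standard error 0.124, adjusted p = 1.50e-12). Oas3, an enzyme that activates RNase L on sensing double-stranded RNA, had 116, 107 and 94.1 CPM against 1.99, 3.24 and 2.20 CPM (4.95), and the chemokine Cxcl10 206, 145 and 165 CPM against 4.41, 6.41 and 5.10 CPM (4.78). Each immortalized library was more than an order of magnitude above each primary library in these genes. Of the signalling components, Stat2 (1.37) and Irf9 (0.91) rose by less than the list's median and Irf7 (3.66) by more. The sensors Ifih1 (2.33), Cgas (1.44) and Sting1 (0.62) rose by less than it. Ifi27 was the member that fell, from 79.3, 93.3 and 92.8 to 37.4, 53.8 and 54.6 CPM (-0.87).

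WT libraries differed among themselves in the same genes. Scaled over 12 libraries, the list summed to 8293, 6854 and 7155 CPM in immortalized MlxKO, 1660.3, 1673 and 1789 CPM in primary MlxKO, 3749, 4208 and 391 CPM in immortalized WT and 1942, 1635 and 1734 CPM in primary WT libraries. Library 3 of the immortalized WT group was below all primary libraries, and the other WT libraries of that group lay between the primary and the immortalized MlxKO libraries. In the test between genotypes, 11 members were higher and 1 lower in MlxKO, and 29 and 2 without that library. Rsad2 was at 80.6, 75.5 and 0.710 CPM in the immortalized WT libraries, and its difference between genotypes was 2.47 (adjusted p = 0.234) with all libraries and 0.63 (adjusted p = 0.0258) without library 3. Oas3 was at 6.91, 4.31 and 0.0591 CPM there and differed in either case, by 5.63 (adjusted p = 0.000829) and 4.76 (adjusted p = 1.84e-09).

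MHC class I genes and the proteins that load peptides on them rose as well, in 13 of 13 members, with a median of 1.88. H2-Q4 had 365, 415 and 394 CPM in immortalized and 38.2, 34.4 and 38.1 CPM in primary libraries (3.37), Psmb9, an immunoproteasome subunit, 21.0, 24.1 and 21.4 CPM against 1.51, 1.75 and 2.67 CPM (2.98), and Nlrc5, the transactivator of class I genes, 117, 104 and 103 CPM against 13.1, 16.6 and 13.8 CPM (2.81). The classical genes H2-K1 and H2-D1 rose by 2.18 and 1.66, and B2m by 0.85. In the test between genotypes 9 members were higher and none lower in MlxKO, and 12 and 1 without library 3 of the immortalized WT group. H2-Q7, outside the list, had 183, 174 and 167 CPM in immortalized MlxKO libraries, with 3.77, 5.31 and 4.89 CPM in primary MlxKO, 3.31, 4.90 and 2.96 CPM in immortalized WT and 4.89, 4.996 and 4.26 CPM in primary WT libraries. The genes H2-Q4, H2-Q6 and H2-Q7 share 42.8%, 48.0% and 38.2% of their 31-base stretches with other class I genes, so the counting may have moved reads between them.

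**Figure D2:**
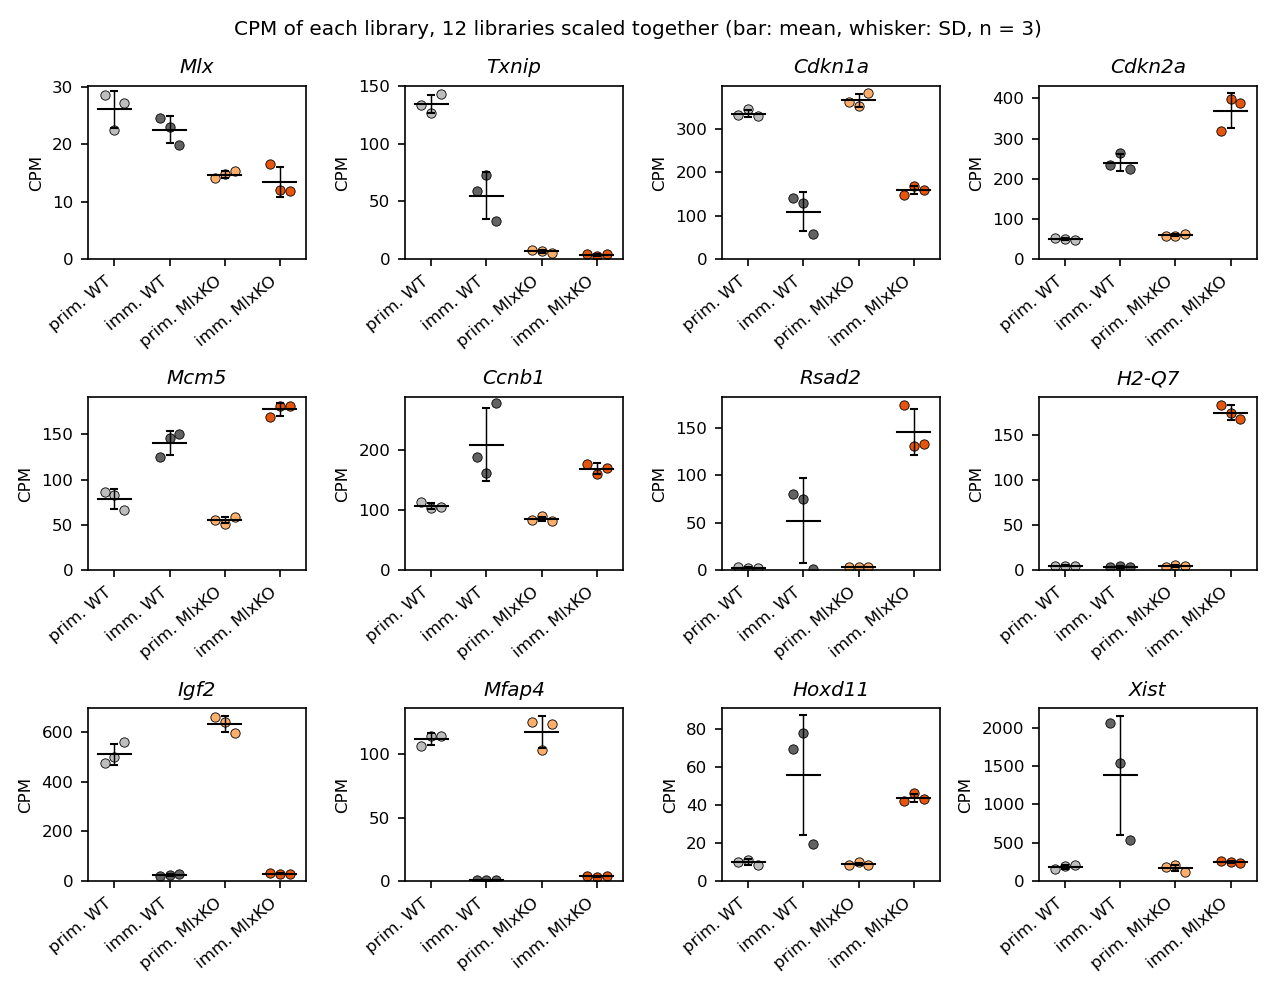
CPM (y axis, linear from 0) of 12 genes in each of the 12 libraries, scaled together, for primary WT, immortalized WT, primary MlxKO and immortalized MlxKO MEFs (n = 3 each, bar mean, whisker SD). H2-Q7 is high in the immortalized MlxKO libraries alone among the 4 groups, and library 3 of the immortalized WT group departs from the others of its group in Rsad2, Hoxd11 and Xist.

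Hox genes, which set position along the body axis and are arranged in 4 clusters in the order of that axis, changed by cluster position. Of 34 tested of 39, 12 rose and 19 fell. Those that rose were all of paralog numbers 9 to 13 and lie at the posterior end of their clusters, namely Hoxa9, Hoxa10, Hoxa11 and Hoxa13, Hoxc11, Hoxc12 and Hoxc13, and Hoxd9 to Hoxd13. All 8 tested genes of the Hoxb cluster, Hoxb2 to Hoxb9, fell, and other falls were those of Hoxc4, Hoxc5, Hoxc6, Hoxc8, Hoxc9 and Hoxc10, Hoxa2 and Hoxa3, and Hoxd4 and Hoxd8. Hoxa4, Hoxa5 and Hoxa7 did not pass the threshold. Hoxa2, Hoxc4, Hoxc5, Hoxc6, Hoxc8, Hoxc9 and Hoxd4 averaged under 1 CPM in immortalized cells, and Hoxc12 in primary cells. These genes passed the filter through the other group, so their direction was largely set by the filter and their values are a description. The genes with the largest changes were from the same cluster, Hoxc12 with 8.98, 10.2 and 9.52 CPM in immortalized against 0.302, 0.202 and 0.290 CPM in primary libraries (log2 fold change 3.06, standard error 0.143, adjusted p = 6.17e-10), and Hoxc8 with 0.491, 0.305 and 0.465 CPM against 16.2, 17.6 and 19.9 CPM (-3.73). Hoxd11 rose to 44.2, 48.5 and 44.8 CPM from 8.93, 10.2 and 8.98 CPM (2.18). Immortalized against primary WT cells showed -3.95 for Hoxc8 and 2.17 for Hoxd11 (-4.03 and 2.79 without library 3 of the immortalized group), and neither difference between genotypes passed the threshold (0.24 and -0.01). Without library 3 of the immortalized WT group, where Hoxd11 was at 69.4, 78.1 and 19.5 CPM, that of Hoxd11 was -0.63 (adjusted p = 0.00704) and that of Hoxc8 0.32 (adjusted p = 0.223). For Hoxc11 the change in WT was -0.27 (-1.07 without that library) and the difference 2.10 (adjusted p = 0.0378), or 2.896 without that library.

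**Figure D3:**
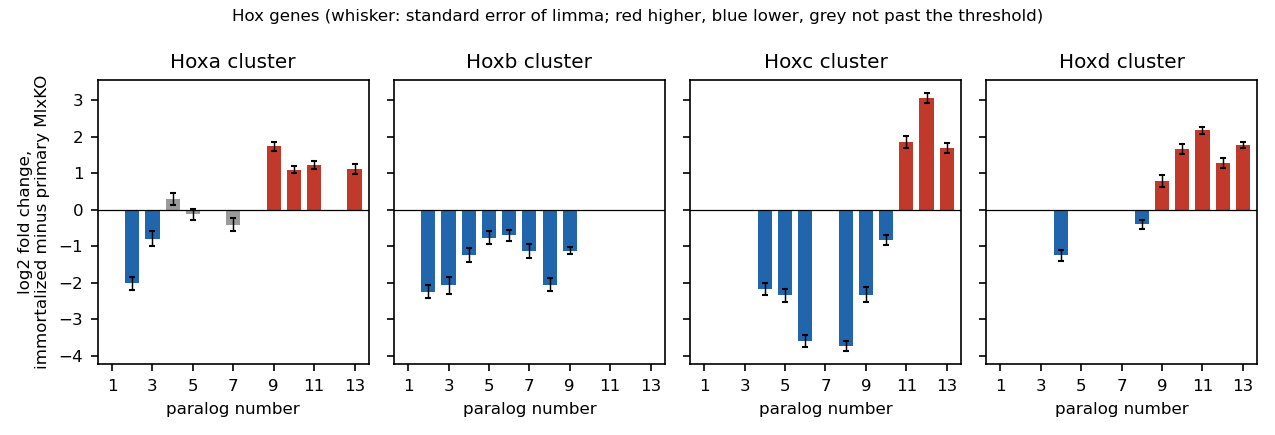
Log2 fold change of log2(CPM + 1), immortalized minus primary MlxKO (y axis), of tested Hox genes by paralog number (x axis), 1 panel per cluster, with bars in red for higher, blue for lower and grey for not past the limma threshold, and whiskers for the standard error. The 12 red bars are at paralog numbers 9 to 13, and all 8 bars of the Hoxb cluster are blue.

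Imprinted genes are expressed from the allele of a single parent, and many of them are active in the embryo. Of 19 tested, 13 fell and 1 rose (13 and 3 with the deposited scaling), with a median of -1.77. The noncoding RNAs of the Dlk1 and Meg3 locus fell together. Rian had 21.3, 17.1 and 16.9 CPM in immortalized and 545, 554 and 519.9 CPM in primary libraries (-4.81), Meg3 17.2, 17.3 and 14.999 CPM against 485, 421 and 323 CPM (-4.54), and Mirg changed by -3.40 on the log2 scale. Dlk1 (-1.77), H19 (-1.90), Peg3 (-3.32) and Ndn (-2.62) fell as well, beside Igf2 above. Cdkn1c, which encodes the CDK inhibitor p57, was the member that rose, from 14.4 ± 1.19 to 29.4 ± 3.40 CPM (SD, n = 3). Plagl1, Peg10, Sgce, Nnat and Mest did not pass the threshold.

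Metabolic lists changed by smaller amounts. Of 24 sterol synthesis genes 13 fell and 4 rose, with a median of -0.37. Hsd17b7 changed by -1.09 on the log2 scale, and Sqle, which encodes squalene epoxidase, fell from 169.6 ± 3.36 to 108 ± 8.27 CPM (SD, n = 3). Srebf2, the factor that controls these genes, rose by 0.44. In WT cells Sqle changed by 0.31 and Hsd17b7 by 0.21 (0.27 and 0.24 without library 3 of the immortalized WT group). In the test between genotypes 14 of the 24 were lower and 4 higher in MlxKO (16 and 4 without that library). Of 21 glycolysis genes 5 rose and 10 fell, a balance that turned to 7 and 5 with the deposited scaling. Hexokinase 1 (Hk1) rose from 93.8 ± 3.50 to 169 ± 15.9 CPM (0.84) while hexokinase 2 (Hk2) changed by -0.44, and Slc16a3, a lactate exporter, fell from 53.5, 50.8 and 49.1 to 11.3, 19.8 and 17.0 CPM. In the test between genotypes, the change was higher in MlxKO for 12 of these genes and lower for none (13 and none without that library). Scaled over 12 libraries, the list summed to 7876, 7983 and 8572 CPM in primary and 6782, 7750 and 7792 CPM in immortalized MlxKO libraries. In WT it summed to 10429, 10239 and 8953 CPM in primary and 5584, 5800 and 6631 CPM in immortalized libraries. The sum was thus lower in immortalized cells of both genotypes.

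Of 13 serine and folate cycle genes, 9 fell and 4 rose (6 and 4 with the deposited scaling), divided by compartment and role. The cytosolic Shmt1 had 36.2, 37.1 and 33.2 CPM in immortalized and 15.2, 16.7 and 14.1 CPM in primary libraries (1.16), and Tyms and Mthfd1 rose with it (1.07 and 0.48). The mitochondrial genes Shmt2 (-0.52), Mthfd2 (-0.93) and Aldh1l2 fell, the last from 200.1, 196 and 184 to 63.4, 57.1 and 55.1 CPM (-1.71). The enzymes of serine synthesis, Phgdh, Psat1 and Psph, changed by -0.33, -0.47 and -0.69 on the log2 scale. Of 13 targets of the oxidative stress factor NRF2, 3 rose, led by Gstm1 (0.79), and 5 fell, led by Gsta4 (-1.34), and the list's median of -0.15 changed sign with the deposited scaling (0.0017).

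Genes for cytosolic ribosomal proteins fell in 69 of 80 cases and rose in none, with a median of -0.58 (-0.58 relative to all genes), and with the deposited scaling 60 fell and none rose. Rps29 had 37.0, 28.9 and 30.7 CPM in immortalized and 123, 86.1 and 107 CPM in primary libraries (-1.67), and Rpl37 83.0, 102 and 91.6 CPM against 220.2, 197 and 287 CPM (-1.33). Many of these genes have processed copies in the genome, and 22.6% of the 31-base stretches of Rps29 recur elsewhere. The 77 mitochondrial ribosomal protein genes showed no such shift, with 9 higher, 9 lower and a median of 0.03. With the deposited scaling these were 25 and 5. Mrpl14 rose by 0.60 and Mrpl52 fell from 42.7 ± 2.24 to 19.8 ± 2.19 CPM (SD, n = 3). For the respiratory chain, 13 of 79 tested subunits rose and 21 fell (23 and 13 with the deposited scaling), with a median of -0.07 that was 0.08 with that scaling. Cox6b2, a testis form of a cytochrome oxidase subunit, rose from 0.664, 0.742 and 0.695 to 3.88, 4.47 and 5.43 CPM, and Ndufb1 of complex I changed by -1.15 on the log2 scale.

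In the Myc and Mlx network, 3 of 11 tested members rose and 4 fell, and with the deposited scaling 5 rose and 2 fell and the median of -0.03 became 0.13. Myc had 73.4, 84.0 and 80.5 CPM in immortalized and 96.9, 101 and 98.5 CPM in primary libraries (log2 fold change -0.32, adjusted p = 0.00402), without overlap, but the change no longer passed with the deposited scaling (-0.16) or library totals (-0.10). Max, the partner of Myc and the Mxd proteins, had 54.9, 49.996 and 50.5 CPM against 69.8, 74.3 and 83.8 CPM (-0.54), and Mycl fell from 3.86, 4.38 and 4.81 to 1.82, 2.13 and 1.19 CPM (-0.99). Of the repressors, Mxd3 rose from 6.76, 6.88 and 7.07 to 13.5, 18.2 and 18.5 CPM (1.15, adjusted p = 7.34e-06), Mxd1 by 0.46 and Mnt by 0.41, whereas Mxd4 changed by -0.28 on the log2 scale, a call lost with the deposited scaling. Mxi1 (0.14), Mga (0.20), Mlxip (-0.02) and Mlx (-0.12) did not pass. Mycn, at 0.252 ± 0.0870 CPM in immortalized and 0.437 ± 0.0967 CPM in primary cells, and Mlxipl, at 0.0517 ± 0.0896 and 0.105 ± 0.0409 CPM (SD, n = 3), were too low to be tested.

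Targets of the Mondo proteins and Mlx were divided, with 5 of 12 tested higher and 3 lower. Txnip had 4.47, 2.59 and 4.60 CPM in immortalized and 7.79, 7.21 and 5.68 CPM in primary MlxKO libraries (-0.71), and its relative Arrdc4 0.196, 0.355 and 0.0517 CPM against 1.99, 2.23 and 3.07 CPM (-1.51). The transcription factor gene Klf10 rose from 19.5 ± 1.64 to 52.96 ± 3.05 CPM (SD, n = 3), Acacb, an acetyl-CoA carboxylase, by 0.96, and Arrdc3 by 0.93, while Acly, the enzyme that supplies acetyl-CoA to fat synthesis, changed by -0.42 on the log2 scale. Fasn (0.12) and Scd1 (0.14) did not pass. The study names Hmga1, Shmt and Plac8 among genes whose altered expression can partly make up for the loss of Myc in fibroblasts. Of these, Hmga1 (0.42) and Shmt1 rose, and Plac8 and Shmt2 fell. Odc1 and Ccnb1, placed on the same list here but not named by the study for this, did not pass (-0.17) and rose (0.99). The list was chosen partly on these samples and is no independent evidence. Plac8 had 1.18, 0.711 and 0.776 CPM in immortalized and 29.0, 32.6 and 45.4 CPM in primary libraries (-4.26, adjusted p = 1.21e-10). Hmga1 had 349.8, 509 and 456 CPM against 318, 294 and 358 CPM, and 28.4% of its 31-base stretches recur in Hmga1b. Its groups overlapped, and its rise no longer passed in the 12-library fit.

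Among all genes with at least 1 CPM in both groups, the largest rise after H2-Q6 (199, 158 and 159 CPM against 2.48, 2.36 and 1.85 CPM, 5.74) was that of Penk, the gene for proenkephalin, with 408, 323 and 331 CPM in immortalized and 4.95, 5.66 and 7.65 CPM in primary libraries (5.66, adjusted p = 1.39e-12). Beside Rsad2, Oas3 and Cxcl10 above, the next were H2-Q7 (4.99), the interferon-stimulated genes Cmpk2 (4.64), Oasl1 (4.27) and Ifit3b (4.14), and Hap1 (4.75), which encodes a huntingtin-associated protein. The largest falls included those of Rian, Meg3, Lum and Mfap4 above and of the genes that follow. Prelp, a matrix protein, had 1.91, 1.12 and 0.983 CPM against 123, 112 and 79.3 CPM (-5.49), Fndc1 5.89, 7.87 and 7.96 CPM against 341, 318 and 279 CPM (-5.26), and Itga11, a collagen receptor of fibroblasts, 17.8, 19.8 and 16.2 CPM against 521, 453 and 401 CPM (-4.60). Galnt18 changed by -5.06 on the log2 scale, lipoprotein lipase (Lpl) by -4.52 and Cthrc1 by -4.37.

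Some genes were found almost only in immortalized or only in primary cells. Those below were picked for having at most 3 reads in all in the other group. They passed the filter only through the group where they were high. Their near absence from the other group was thus set by the choice, and the values are a description. Tnfsf10, the gene for the death ligand TRAIL, had 5.35, 4.16 and 4.97 CPM in immortalized libraries and no read in primary ones, which is at least 78.3-fold higher. Pax5, a factor of B cells, had 4.71, 5.38 and 4.19 CPM against 2 reads in the primary libraries, a ratio of 116 (95% exact interval 31.8 to 962). Ripk4 and Wnt7a had 1 read each there, with ratios of 122 (21.6 to 4851) and 109.7 (19.4 to 4366). Msmp had 3, a ratio of 36.9 (12.3 to 181), and its exons lie wholly within Rgp1 on the opposite strand. In the other direction, the myeloid receptor gene Lilrb4a (at least 710.0-fold lower) and the neurotrophin receptor gene Ngfr (at least 539.6-fold lower) had no read in immortalized cells. Adam23 had 34.6, 31.8 and 29.0 CPM in primary libraries and 2 reads in all in immortalized ones, a ratio of 943 between primary and immortalized cells (261 to 7796).

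Sex-linked genes were examined because the embryos were pooled. Xist had 269, 258 and 241 CPM in immortalized and 193, 209 and 127 CPM in primary MlxKO libraries, and Ddx3y 57.6, 43.5 and 44.3 CPM against 68.6, 66.8 and 63.5 CPM, so RNA from both sexes was present in both groups. Xist rose by 0.56, and all 4 Y-linked genes tested fell, with log2 fold changes between -0.39 for Kdm5d and -0.74 for Eif2s3y. With the deposited scaling only 2 of these falls passed, and for Uty (-0.42) the value was -0.27.

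Counting limits touch some of the genes named. Over 20% of the exonic bases lie opposite exons of another gene in 22 of them, including Mxd3, Fanca, Tinf2, Acd, Ccn2, Slc16a3, Cdkn1c, Sox2 and Ndufb1, and whether the authors' counting used the strand is not given in the sources used here. Over 20% of the 31-base stretches recur in other genes in 12, among them Ercc4, Ifit3b and Lilrb4a beside those given above.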

How the data were processed

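Directional libraries of poly-A RNA, in triplicate for each group, were run on an Illumina NovaSeq, and CLC Genomics Workbench mapped the reads to GRCm39 and counted them per gene. The signal values were made by the authors as CPM, with a scaling between libraries that is not named in the sources used here, in separate tables for primary and immortalized cells. In each library 100% of the nonzero values were whole multiples (within 0.01) of the smallest step, which gave back the reads. The reads of the 6 libraries were scaled together by TMM (edgeR 4.0.16), and log2(CPM + 1) was fitted in limma 3.58.1 with R 4.3.3, with a trend in the variance prior and Benjamini-Hochberg adjustment over 12895 genes. A fit of 12 libraries, WT included, tested the difference between genotypes over 13247 genes. The columns carry library numbers that no label ties to a replicate number, so the numbers 1 to 3 only name a library.

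Count tests on the recovered reads were run as alternatives. With edgeR's quasi-likelihood test 3640 genes were higher and 3853 lower, and with DESeq2 1.42.0 3575 and 3770. Other alternatives were a pseudocount of 0.1, no filter, a filter at a mean of 5 CPM, the deposited scaling, library totals, median-ratio scaling, a robust prior, the 12-library fit and the omission of each library. A replicate block on the column numbers and the change in WT without library 3 of the immortalized WT group were added after seeing the data. The tests were also tried on simulated data. These gave every gene the same dispersion, changed only genes with many reads and held no library that stood apart. They therefore do not cover the spread among the libraries used here. The first criterion asked for recovery of changes of every simulated size, and DESeq2's test between genotypes missed it at the smaller fall. After this was seen the criterion was changed to ask for recovery of the larger changes only, with a limit on the error of the estimates added, and all tests met it.

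Members and gene lists were chosen with earlier results of these data known. Named genes were the Myc and Mlx network, a few p53 and Rb genes and those tied to the study, the 3 largest rises and falls past the threshold and without overlap in each list, the 10 largest each way over all genes with at least 1 CPM in both groups, the 5 each way with at most 3 reads in the other group, and the 5 largest each way between genotypes, with predicted genes left out; list members named for their role were added, and a few members are not reported here. Lin54, Rigi and Aldoa were not analysed here. Gene places and overlaps are those of GENCODE vM39. Read ratios carry exact (Clopper-Pearson) intervals for counting error only. The other groups of the study were not used here.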

Additional observations from a re-analysis of the deposited data

Results flagged for a closer look

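The difference between immortalized and primary cells was itself different in MlxKO and WT cells for the genes below, which have the largest such differences each way at a limma adjusted p under 0.05 with a mean of at least 1 CPM in all 4 groups. The WT group includes the immortalized library 3 that stood apart, so each value is given also without it.

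H2-Q6 differed by 5.85 on the log2 scale (adjusted p = 4.67e-07) and by 5.60 without that library, with 191, 151 and 154 CPM in immortalized MlxKO against 2.11, 2.23 and 0.887 CPM in immortalized WT libraries. Its neighbour H2-Q7 differed by 5.26 (adjusted p = 4.07e-07) and 5.14. Oas3 differed by 5.63 (4.76 without the library), and Oas2 by 5.07 (3.92), with 11.5, 10.6 and 0.118 CPM in the immortalized WT libraries. Cd34, a surface protein of progenitor cells, differed by 5.03 (adjusted p = 5.00e-06) and 4.84. It had 64.3, 68.0 and 73.6 CPM in immortalized and 8.17, 5.64 and 7.92 CPM in primary MlxKO libraries, but 1.26, 2.94 and 1.01 CPM and 9.16, 8.86 and 8.98 CPM in the same WT groups, so it rose in MlxKO and was lower in immortalized than in primary WT libraries.

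Cdsn, which encodes corneodesmosin, an adhesion protein of skin, differed by -5.72 (adjusted p = 8.89e-06) and -6.09, with 3.90, 5.68 and 5.79 CPM in immortalized and 68.1, 62.3 and 59.9 CPM in primary MlxKO libraries against 89.3, 91.8 and 41.5 CPM and 10.1, 13.1 and 17.7 CPM in WT. Mest, an imprinted gene, differed by -4.26 (adjusted p = 0.0123) and -5.56, and had 1655, 1682 and 111 CPM in the immortalized WT libraries. The Wnt antagonist gene Sfrp2 differed by -3.74 (-4.64), with 658, 931 and 119.9 CPM there. Fibromodulin (Fmod) differed by -3.43 (-4.05), with 4.27, 5.68 and 4.29 CPM in immortalized and 123, 119 and 108 CPM in primary MlxKO libraries. Commd1b differed by -3.54 (-3.69), with 10.1, 0 and 3.94 CPM within the immortalized MlxKO group and 99.0% of its 31-base stretches in other genes, so its value is uncertain. Its difference no longer passed with edgeR, with DESeq2 and in further settings.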

How the results depend on the processing

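The MlxKO columns of both tables carry the same 3 numbers, which no label ties to its replicate numbers, and a fit with them as a replicate block was added after seeing the data. Deviations from the group means of same-numbered libraries had correlations of -0.151, -0.170 and 0.0905, and 2 of the 3 numbers correlated better with another, so the libraries share only a number. With the block 3589 genes were higher and 3745 lower, 831 and 1136 with a change of at least 1, and 2341 and 2391 differed between genotypes, where the WT groups share only 2 numbers; of the named genes only Col4a5 no longer passed.

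Of 3556 values of named genes under other settings, 3471 kept their direction and side of the threshold, 65 no longer passed, 12 newly passed and 8 changed sign, all 8 in genes that did not pass in either setting. These were Mlx (-0.12) with the deposited scaling (0.0211) and library totals (0.0753), Odc1 (-0.17) with library totals (0.0380), and Mlxip (-0.0250) with the deposited scaling (0.128), library totals (0.185) and without library 1 of the immortalized group (0.0188) or library 1 (0.0392) or 2 (0.00495) of the primary group. Without library 3 of the primary group Mlxip was at -0.128.

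Library totals gave 5630 genes higher and 2499 lower. A filter at a mean of 5 CPM left 10632 genes tested, fewer by construction. Of these, 627 had a log2 change of -1 or lower and 610 a change of at least 1. Without single libraries the counts lay between 2986 and 3733 higher, 2960 and 4115 lower, 701 and 857 with a change of at least 1, and 715 and 1158 with -1 or lower; the lowest of the last (723, 715 and 727) came without each primary library, when fewer genes were tested. Between genotypes they lay between 1239 and 3155 higher and between 1470 and 3207 lower in MlxKO, with the highest without library 3 of the immortalized WT group, 1239 and 1245 higher without library 2 or 3 of the immortalized MlxKO group, and 1316 and 1300 without library 1 or 2 of the primary WT group; the cause was not tested. The difference for Commd1b no longer passed in 12 other settings, edgeR and DESeq2 among them. In the 12-library fit, whose spread includes the WT libraries, 21 named genes no longer passed, among them Myc, Mnt, Hmga1, Mfap2 and Xist. With 3 libraries a group, genes near the floor of 3 reads are limited by depth.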
